A study of Mus musculus with 5 samples.

Results

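The genes described here are 44 type I interferon-stimulated genes (type I ISGs), mouse genes known to be induced when cells sense IFN-α or IFN-β. They are listed by name, and the list was drawn up with earlier results of these data known. All 44 are among the 33696 genes of the MC38 tumor matrices, and 42 are among the 32285 genes of the tumor-draining lymph node (TDLN) matrices, where Mx1 and Mx2 were not analysed. The 44 genes comprise 7 of the ISG15 and ubiquitin or ADP-ribose system, 12 of RNA binding and translation, 3 RNA helicase sensors, 2 transcription factors, 6 membrane, GTPase, and nucleotide effectors, 5 of the HIN200 family, and 9 others.

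The study asked how a JAK1 inhibitor given after checkpoint inhibition changes antitumor immunity. CPI here means the antibodies anti-CTLA4 and anti–PD-1 together, with an isotype antibody as its control, and ABT-317 (20 mg/kg) is the JAK1 inhibitor, with DPBS as its vehicle. Tumors grew under the skin from 1000000 cells of a prostate cancer line, TRAMP-C2, or of a colon cancer line, MC38, and every host was a WT C57BL/6J male of 8 to 10 weeks. The antibodies went into the peritoneum (i.p.) at 3 times (days 3, 6, and 9), the inhibitor or its vehicle came after the last of them, at day 12, and the tissues were taken at day 15. Cells were loaded as 3 reactions of unsorted TDLN cells from mice with TRAMP-C2 tumors and 2 reactions of MC38 tumor cells, in which sorted CD45+ and CD45- cells were mixed in equal parts. Each MC38 reaction holds 4 treatments, isotype, isotype + ABT-317, CPI, and CPI + ABT-317, told apart by hashtag antibodies. Each TDLN reaction pools isotype, CPI, and CPI + ABT-317, and its matrix has 0 hashtag counts, so TDLN values are over all treatments together. Each treatment has 1 hashtag per reaction, which names no mouse, so p-values measure only the spread between sums of cells from the 2 reactions, which may be technical.

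Type I interferons bind the receptor IFNAR1–IFNAR2, whose kinases JAK1 and TYK2 activate the factor ISGF3, which holds IRF9 and binds the interferon-stimulated response element (ISRE) in promoters of antiviral genes. IFN-γ signals through another receptor, JAK1, and JAK2 to the gamma-activated site (GAS), and many genes answer both cytokines. Macrophages and monocytes are known both as sources of IFN-β and as strong responders to it.

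ISRE letters were looked for as GAAA, any 2 bases, then GAAA on both strands, where matches may overlap each other, in RefSeq promoter windows of 250 bases before to 50 after the start site (build GRCm38.p6). Of the 44 genes, 33 had a window, and 18 of these 33 (54.5%) held the letters, against 1079 of all 27025 genes with a window (3.99%). GAS letters (TTCNNNGAA) were in 6 of the 33 (18.2%) and in 9.55% of all genes. Genes with no window here were Dhx58, Ifi204, Mx1, Mx2, Oas2, Parp14, Parp9, Rtp4, Tor3a, Usp18, and Zbp1. The windows below belong to the 3 genes with most UMIs in macrophages (Bst2, Isg15, and Rsad2), the gene with the largest rise in them after ABT-317 under CPI (Oas3), and the only one called lower there (Ifih1), with ISRE letters in capitals.
Isg15 (ubiquitin-like protein; chr4:156200769-156201068, minus strand): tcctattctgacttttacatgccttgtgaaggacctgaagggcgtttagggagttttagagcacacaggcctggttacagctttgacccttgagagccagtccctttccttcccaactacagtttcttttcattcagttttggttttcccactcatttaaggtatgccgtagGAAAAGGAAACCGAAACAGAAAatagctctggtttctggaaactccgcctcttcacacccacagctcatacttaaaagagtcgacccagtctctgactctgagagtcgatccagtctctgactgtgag
Bst2 (tetherin, which holds virions at the membrane; chr8:71537423-71537722, minus strand): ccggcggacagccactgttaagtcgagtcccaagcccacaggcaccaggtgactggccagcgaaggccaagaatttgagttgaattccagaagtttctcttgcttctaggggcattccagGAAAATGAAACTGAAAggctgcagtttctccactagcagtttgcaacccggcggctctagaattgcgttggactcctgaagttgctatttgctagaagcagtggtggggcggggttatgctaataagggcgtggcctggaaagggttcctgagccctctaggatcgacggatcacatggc
Rsad2 (viperin, an antiviral nucleotide enzyme; chr12:26456403-26456702, minus strand): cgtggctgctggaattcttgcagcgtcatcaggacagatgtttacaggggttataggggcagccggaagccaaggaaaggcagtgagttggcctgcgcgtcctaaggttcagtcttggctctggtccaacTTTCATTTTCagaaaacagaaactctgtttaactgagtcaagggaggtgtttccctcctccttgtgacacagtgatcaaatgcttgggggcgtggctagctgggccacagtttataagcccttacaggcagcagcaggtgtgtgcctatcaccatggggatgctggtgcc
Oas3 (2′-5′ oligoadenylate synthetase; chr5:120777610-120777909, minus strand): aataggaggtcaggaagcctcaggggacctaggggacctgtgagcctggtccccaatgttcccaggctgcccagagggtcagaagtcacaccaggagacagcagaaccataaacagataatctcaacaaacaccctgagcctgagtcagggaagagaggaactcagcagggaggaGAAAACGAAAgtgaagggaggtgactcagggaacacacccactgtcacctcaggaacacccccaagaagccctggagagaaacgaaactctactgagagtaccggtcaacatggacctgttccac
Ifih1 (MDA5, a sensor of long double-stranded RNA; chr2:62646206-62646505, minus strand): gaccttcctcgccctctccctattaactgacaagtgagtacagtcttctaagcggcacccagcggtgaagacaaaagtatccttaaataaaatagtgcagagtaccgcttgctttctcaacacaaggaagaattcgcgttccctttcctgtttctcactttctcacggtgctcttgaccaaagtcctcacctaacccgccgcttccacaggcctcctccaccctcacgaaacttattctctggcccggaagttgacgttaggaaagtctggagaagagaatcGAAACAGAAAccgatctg
With the start site counted as 0, the letters begin at -78 for the first of 3 overlapping matches in Isg15, at -130 and -124 in Bst2, at -120 in Rsad2, on the other strand, and at -75 in Oas3. In Ifih1 they begin at 32, after the start site. A match of letters is a description and does not show binding.

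Gene UMIs were 435031691 and 377184807 in the MC38 reactions and 127052825, 105259770, and 18055617 in the TDLN reactions. Cells were put into classes by marker genes, and names ending in -like rest on these markers alone. In MC38 tumors, 52.1% and 63.9% of passing cells entered a class. A further class had no UMI of the 3 leukocyte genes or the T cell list, by the rule of the class, and entered no other class. Its cells also needed at least 2000 UMIs and under 10 UMIs of the macrophage list per 10000. They held almost no keratin and other epithelial markers (0.825 and 0.759 CPM for the 7-gene list), so this class stays unnamed and is called nonleukocyte. In TDLNs most classed barcodes (28056, 19215, and 2663) carried T and B cell markers together, and only 1612, 1259, and 123 B cell-like and 736, 2322, and 79 T cell-like cells were free of the other list. In reaction 3 the T cell-like class was not led by T cell genes. Of each pair of libraries, 3.84% to 8.70% of the smaller one's barcodes also occurred in the other. Cells tagged as CPI were shallower, with medians of 1299 and 1406 genes against 2386 to 4544 for the other treatments. Their median depths were 2582 and 3049 UMIs against 6683 to 24344, so they lay nearer the 2000 UMI floor of nonleukocytes. The part of this floor in the nonleukocyte differences was not tested.

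Over all treatments together, the summed level of the 44 genes had its highest means in monocyte-like and macrophage-like cells of MC38 tumors. Levels are CPM, UMIs of the genes per 1000000 UMIs of all genes in the class, and the library kit counts 1 end of each molecule, so gene length does not enter. Macrophage-like cells (5113 and 5280 cells) were at 3854 and 4086 CPM in reactions 1 and 2, and monocyte-like cells (74 and 63 cells) at 4248 and 3673 CPM. Neutrophil-like cells were at 2678 and 4080 CPM, but rest on 46 and 22 cells. These 3 classes overlapped with each other. Endothelial-like cells followed at 3206 and 2002 CPM, and dendritic cell-like cells at 2217 and 1833 CPM. T cell-like cells (1957 and 1700), unnamed nonleukocytes (1744 and 1855), and fibroblast-like cells (1743 and 1763) overlapped near the bottom of the order. The TDLN classes with at least 10 cells in each reaction were lower still, with B cell-like cells at 1505, 1529, and 1588 CPM, T cell-like cells at 1247, 1270, and 1416 CPM, and barcodes with both marker sets at 1413, 1423, and 1592 CPM. Rarer TDLN cells were not low throughout. Plasmacytoid DC-like cells were at 1838 CPM from 2 cells in reaction 1 and at 4434 CPM from 14 cells in reaction 2 (95% exact Poisson interval 3707 to 5262 CPM), and monocyte-like cells at 2458 and 5973 CPM from 1 and 2 cells.

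**Figure D1:**
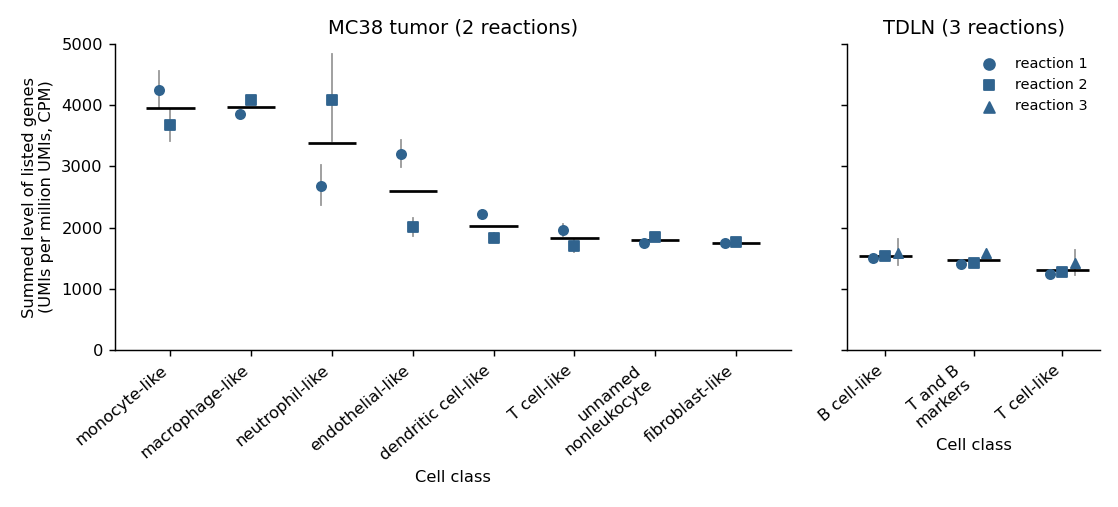
Summed level of the 44 genes (42 in TDLN) in CPM (vertical axis) for each cell class (horizontal axis). Each point is 1 reaction over all treatments, black bars are means, and gray lines are exact 95% Poisson intervals, which cover counting error only. Macrophage-like cells sit at 3854 and 4086 CPM, above every T cell-like, nonleukocyte, and fibroblast-like sum.

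These class levels mix treatments in unlike shares. Of macrophage-like cells, 3699 and 3967 carried the isotype tag and 124 and 124 the CPI tag, whereas 269 and 252 T cell-like and 712 and 560 fibroblast-like cells carried the CPI tag. Within the isotype tag, macrophage-like cells were at 3775 and 3961 CPM and nonleukocytes at 1515 and 1653 CPM. Within the CPI tag, macrophage-like cells were at 2448 and 2917 CPM, nonleukocytes at 2315 and 1924, T cell-like cells at 1685 and 1645, and fibroblast-like cells at 1622 and 1697. The order was not the same within each tag. Dendritic cell-like cells with the CPI tag (22 and 21 cells) were at 3519 and 2278 CPM and endothelial-like ones (31 and 30 cells) at 3436 and 1988 CPM, and both overlapped with CPI-tagged macrophage-like cells. Endothelial-like cells with the isotype tag were at 5168 and 3239 CPM from 3 and 4 cells. None of these differences was tested.

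Bst2 and Isg15 gave the largest shares of the UMIs in most MC38 classes. In macrophage-like cells Bst2 gave 24.5% and 24.8% of the UMIs of the 44 genes, Isg15 gave 17.3% and 18.9%, and Rsad2 gave 6.11% and 5.45%. In nonleukocytes Bst2 and Isg15 gave 36.7% and 20.2% in reaction 1 and 37.0% and 20.9% in reaction 2, followed by Xaf1, a proapoptotic zinc finger gene, with 6.10% and 6.00%. Sp100, a nuclear body gene, and Ifi203, a HIN200 gene, led over all passing TDLN cells, with 24.9% to 26.5% and 8.49% to 10.4% of the UMIs. Isg15, which led or came next to Bst2 in every MC38 class, was at 14.6, 13.9, and 0 CPM in TDLN B cell-like cells.

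Single genes differed in their order of classes, though many did not separate the top class from the others. Among the 7 MC38 classes with at least 50 cells per reaction, 24 genes had their highest mean in monocyte-like cells. Another 11 were highest in macrophage-like, 6 in endothelial-like, 2 in T cell-like, and 1 in fibroblast-like cells. Both sums of the top class lay above all other sums for 10, 3, 1, 2, and 0 of these genes, in the same order. The shares of all genes with these top classes were not computed. Monocyte-like sums were small, at 189509 and 215358 UMIs of all genes against 21855123 and 26306963 in macrophage-like cells, so their means are less certain. Ifih1 was at 191 and 182 CPM in macrophage-like cells and at 14.04 and 12.05 in nonleukocytes, and Irf7, a transcription factor that amplifies interferon output, was at 92.7 and 120 against 11.9 and 16.5 CPM. Mx1, a dynamin-like GTPase whose product is truncated in C57BL/6 mice, was at 21.4 and 24.9 CPM in macrophage-like cells and at 2.27 and 2.15 in nonleukocytes.

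Some members followed other lineages. Sp100 was highest in T cell-like cells of the tumor (131 and 155 CPM), as was Isg20, an RNA exonuclease (68.2 and 108 CPM). Slfn5, a Schlafen gene, was at 144 and 153 CPM in fibroblast-like and 137 and 145 in endothelial-like cells, against 48.8 and 47.9 in macrophage-like cells and 1.48 and 0.905 in nonleukocytes. Ifi205, a HIN200 gene, was at 119 and 136 CPM in fibroblast-like and 174 and 111 in monocyte-like cells but at 2.75 and 2.61 in nonleukocytes and at 0 UMIs in endothelial-like cells, where 3 counts would be 11.4 and 8.56 CPM. HIN200 genes, Schlafen genes, Ifit3 and Ifit3b, and Oas1a have near-identical relatives, and how the counting shared reads among them is not given in the sources used here.

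**Figure D2:**
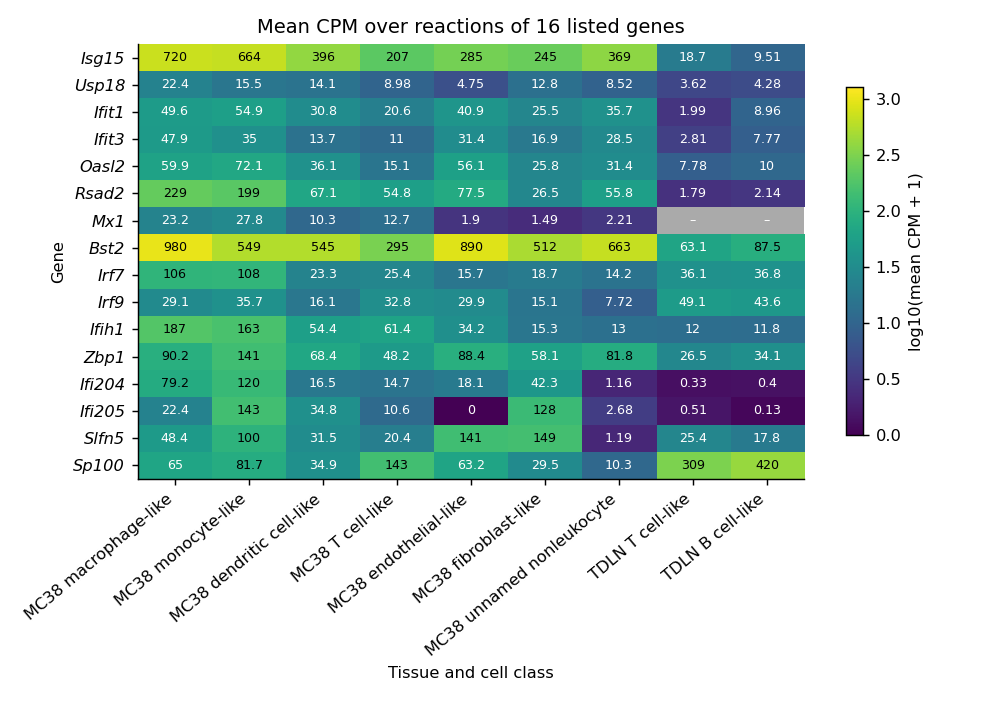
Mean CPM over reactions (number in each cell, color as log10 of the mean plus 1) of 16 genes chosen to stand for the roles (rows) in MC38 and TDLN classes (columns). Gray marks Mx1 in TDLN, not analysed there. Bst2 and Isg15 are bright in every MC38 class, while Slfn5 and Ifi205 are high in fibroblast-like and low in nonleukocyte cells.

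Monocyte-like and macrophage-like cells were compared over all treatments together. The monocyte-like sums held only 805 and 791 UMIs of the 44 genes, so a gene not called may still differ. The isotype tag was on 39 of 74 and 30 of 63 monocyte-like cells, and on 3699 of 5113 and 3967 of 5280 macrophage-like cells. The part of this unlike mix in the differences was not tested. Of 44 tested, 2 passed edgeR's quasi-likelihood test at an adjusted p of 0.05, against 1.77% of all 11774 genes (1.19% higher and 0.578% lower). Ifi205 was higher in monocyte-like cells (143 ± 44.3 against 22.4 ± 2.27 CPM, mean ± SD, n = 2 sums), by 2.48 ± 0.26 (SE) on the log2 scale with an edgeR adjusted p of 4.42e-05. Bst2 was lower (549 ± 104 against 980 ± 48.5 CPM), by a log2 difference of -1.005 ± 0.19 with an edgeR adjusted p of 0.00609. The median log2 difference of the 44 was 0.07. For 19 genes both monocyte sums lay above both macrophage sums (23.9% of all genes did) and for 6 genes below (27% of all genes). Isg15, Rsad2, Ifih1, Irf7, Ifit1, and Mx1 had log2 differences between -0.39 and 0.06 and were not called. Without macrophage reaction 2 or without monocyte reaction 1, 1 member was called (1.00% and 0.44% of all genes).

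Within macrophage-like cells the genes were spread unevenly over cells. After each cell was thinned to 2000 UMIs, which left out 599 and 493 shallower cells, the median was 6 UMIs of the 44 genes per cell in both reactions, the 90th percentile was 16 and 17, and 1.88% and 2.34% of cells had none. The unthinned level was 3854 and 4086 CPM. The variance over cells was 6.65 and 8.21 times the mean. In isotype + ABT-317 the median was 7 and 7 and the 90th percentile 26 and 26. In CPI, where only 80 and 87 cells were deep enough, the median was 4 and 3.

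In macrophage-like cells the summed level of the 44 genes was 3775 and 3961 CPM in isotype, 5064 and 5353 CPM in isotype + ABT-317, 2448 and 2917 CPM in CPI, and 4293 and 4771 CPM in CPI + ABT-317. The sums of the 4 treatments did not overlap, with CPI lowest and isotype + ABT-317 highest. These sums hold 3699 and 3967, 286 and 217, 124 and 124, and 260 and 293 cells. In summed cells, a different mix of cells and a different level per cell cannot be told apart.

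CPI-tagged macrophage-like cells also differed in other markers. The 7-gene monocyte list was at 586 and 420 CPM in CPI against 110 to 155 CPM in the other 6 sums, and the 8-gene T cell list at 64.5 and 86.0 against 3.35 to 30.8 CPM, with Trac at 0 in CPI reaction 1 and Trbc1 and Trbc2 at 0 in CPI reaction 2. The part of these markers in the treatment differences was not tested beyond the values without such cells. The macrophage list was at 28403 and 29688 CPM in CPI, within the range of the other sums (23152.5 to 31133 CPM), but its 9 genes did not move as one. In CPI against isotype Mrc1 was higher and C1qa, C1qc, and Ms4a7 were lower, and with ABT-317 under CPI C1qa, C1qc, and Ms4a7 rose and Mrc1 and Apoe fell. The 7-gene cDC2 list was also higher in CPI, at 490 and 545 CPM against 328 to 370 CPM, with Cd209a and Flt3 at 0 in both CPI sums, and Clec10a and Sirpa were called higher in CPI and lower with ABT-317 under CPI. The 5-gene cDC1 list was lower in CPI, at 61.6 and 74.1 CPM against 112 to 190 CPM, with Xcr1 and Gcsam at 0 in both CPI sums and Cadm1 called lower in CPI and higher with ABT-317. The 6-gene plasma cell list was at 58.6 and 64.5 CPM in CPI against 21.1 to 53.0 CPM, with Derl3, Mzb1, and Tnfrsf17 at 0 in both CPI sums and Sdc1 called higher in CPI and lower with ABT-317. The mature DC (32.2 and 45.4 against 9.38 to 28.2 CPM), neutrophil (79.2 and 45.4 against 21.4 to 45.03 CPM), and mast cell lists (2.93 and 16.7 against 0 to 0.664 CPM) also lay above the other sums in CPI, and the 3 leukocyte genes below (1410.1 and 1505 against 1560.5 to 1794 CPM). Median UMIs per cell were 2369 and 2708.5 in CPI against 3433.5 to 4804 elsewhere. When all cells with a UMI of the T cell list or of the monocyte list other than Vcan were left out (an alternative added once these lists had been seen), the summed level of the 44 genes was 2787 and 3176 CPM in CPI, 4440 and 4760 in CPI + ABT-317, 3900 and 4155 in isotype, and 5299 and 5404 in isotype + ABT-317. The order of the treatments was the same. Of 5113 and 5280 macrophage-like cells, 3050 and 2256 had a marker rate within 2-fold of the limit of the class.

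**Figure D3:**
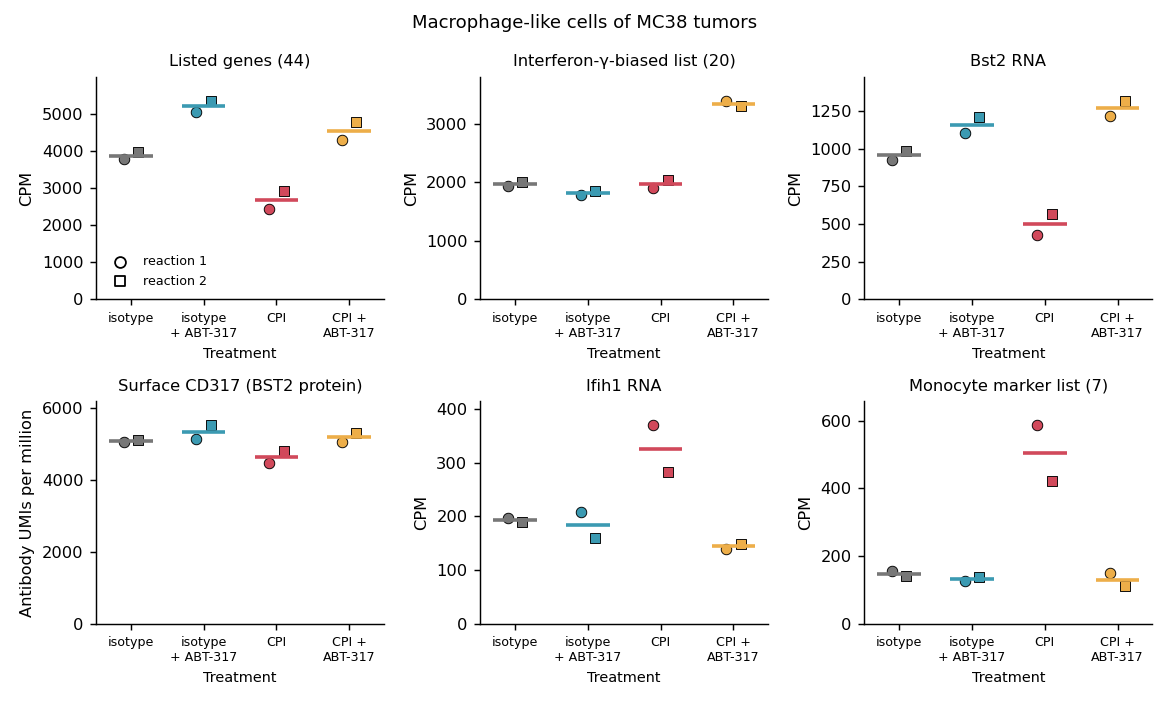
Levels in macrophage-like cells of MC38 tumors by treatment (horizontal axis), in CPM or, for CD317, in antibody UMIs per 1000000 panel UMIs (vertical axes from 0). Points are the 2 reactions and bars their means. The 44 genes and Bst2 are lowest in CPI, Ifih1 and the monocyte list are highest there, and the IFN-γ-biased list stands out in CPI + ABT-317.

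ABT-317 under CPI: most members were higher in CPI + ABT-317 than in CPI. Of the 44 genes, 19 passed edgeR's test, 18 higher and 1 lower, where 8.63% of all 8887 genes tested passed (3.68% higher and 4.95% lower). The median log2 difference was 0.87, against 0.01 over all genes, and 40 of 44 were above 0. Both CPI + ABT-317 sums lay above both CPI sums for 31 of the 44 genes, as for 24.5% of all genes, and below for 2, as for 26.8%.

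Of the 12 RNA-binding genes, 6 rose, and all 12 had differences above 0. Oas3 was at 41.0 and 36.2 CPM in CPI + ABT-317 and at 8.79 and 4.78 CPM in CPI, a log2 difference of 2.58 ± 0.45 (SE) with an edgeR adjusted p of 0.00273. This was the largest rise among the 44, and its CPI sums rest on 3 and 2 UMIs. Oasl2, a ubiquitin-like OAS relative, went from 29.3 and 21.5 to 61.5 and 77.8 CPM (1.53 ± 0.29, edgeR adjusted p = 0.00487). Zbp1, a sensor of Z-form nucleic acids, went from 49.8 and 54.9 to 113 and 150 CPM (1.38 ± 0.26, edgeR adjusted p = 0.00424). Ifit2 (1.41), Eif2ak2, which encodes the kinase PKR (1.41), and Ifit3 (1.27) also rose, while Ifit1 had a log2 difference of 0.23 and was not called.

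The 3 RNA helicase sensors split. Dhx58, which encodes LGP2, a helicase that binds RNA without signaling on its own, was at 35.9 and 38.2 CPM in CPI + ABT-317 and at 8.79 and 9.56 in CPI, where it rests on 3 and 4 UMIs, a rise of 2.05 ± 0.46. Ifih1 was at 139 and 149 CPM in CPI + ABT-317 and at 369 and 282 in CPI, a log2 difference of -1.12 ± 0.17 with an edgeR adjusted p of 0.000971. All other treatment sums of Ifih1 lay between 139 and 208 CPM, so the CPI sums stood alone. Ddx60, the remaining helicase, was not called. Of the transcription factors, Irf7 rose (38.1 and 57.3 to 114 and 166 CPM, 1.58 ± 0.33) and Irf9, the DNA-binding part of ISGF3, had a log2 difference of 0.79 ± 0.42 and was not called.

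Of the 6 membrane, GTPase, and nucleotide effectors, 3 rose. Bst2 was at 425 and 569 CPM in CPI and at 1219.5 and 1318 in CPI + ABT-317, a log2 difference of 1.39 ± 0.18 with an edgeR adjusted p of 0.000334. Rsad2 (0.81 ± 0.18) and Rtp4, a chaperone of receptors (1.25), also rose, whereas Mx1 had a difference of 1.31 ± 0.67 and was not called. Of the HIN200 genes, Ifi213 (1.98 ± 0.48, 2.93 and 16.7 to 34.2 and 45.6 CPM, from 1 and 7 UMIs in CPI), Ifi209, and Ifi203 rose, and Ifi204 (0.43) and Ifi205 (0.56) were not called. Of the 7 genes of the ISG15 system 1 rose, Trim30a, and Isg15 itself was at 276 and 538 CPM in CPI and at 614 and 757 in CPI + ABT-317 (0.77 ± 0.25, edgeR adjusted p = 0.0751, and 0.000243 with the reaction as a block). Usp18, which removes ISG15 and damps the receptor, had 0.88 ± 0.43. Among the others, Phf11b (1.42), Ifi35, and Sp100 (1.07 ± 0.24) rose, and Slfn5 had -0.27 ± 0.28.

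How many members passed depended on which sums and cells entered. Without CPI reaction 1, 4 members were called (2.39% of all genes), without CPI reaction 2, 12 (5.58%), without CPI + ABT-317 reaction 1, 9 (4.20%), and without CPI + ABT-317 reaction 2, 7 (2.94%). The medians of these and the other fits without 1 sum ranged from 0.81 to 1.29. Without cells carrying monocyte or T cell markers, 8 of 44 were called (4.32% of 7935 genes), and 10 with a stricter macrophage gate (6.10% of 6407 genes). With the reaction as a block, 22 were called (14.9% of all genes), with Isg15, Oas1a, and Xaf1 added, all higher.

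**Figure D4:**
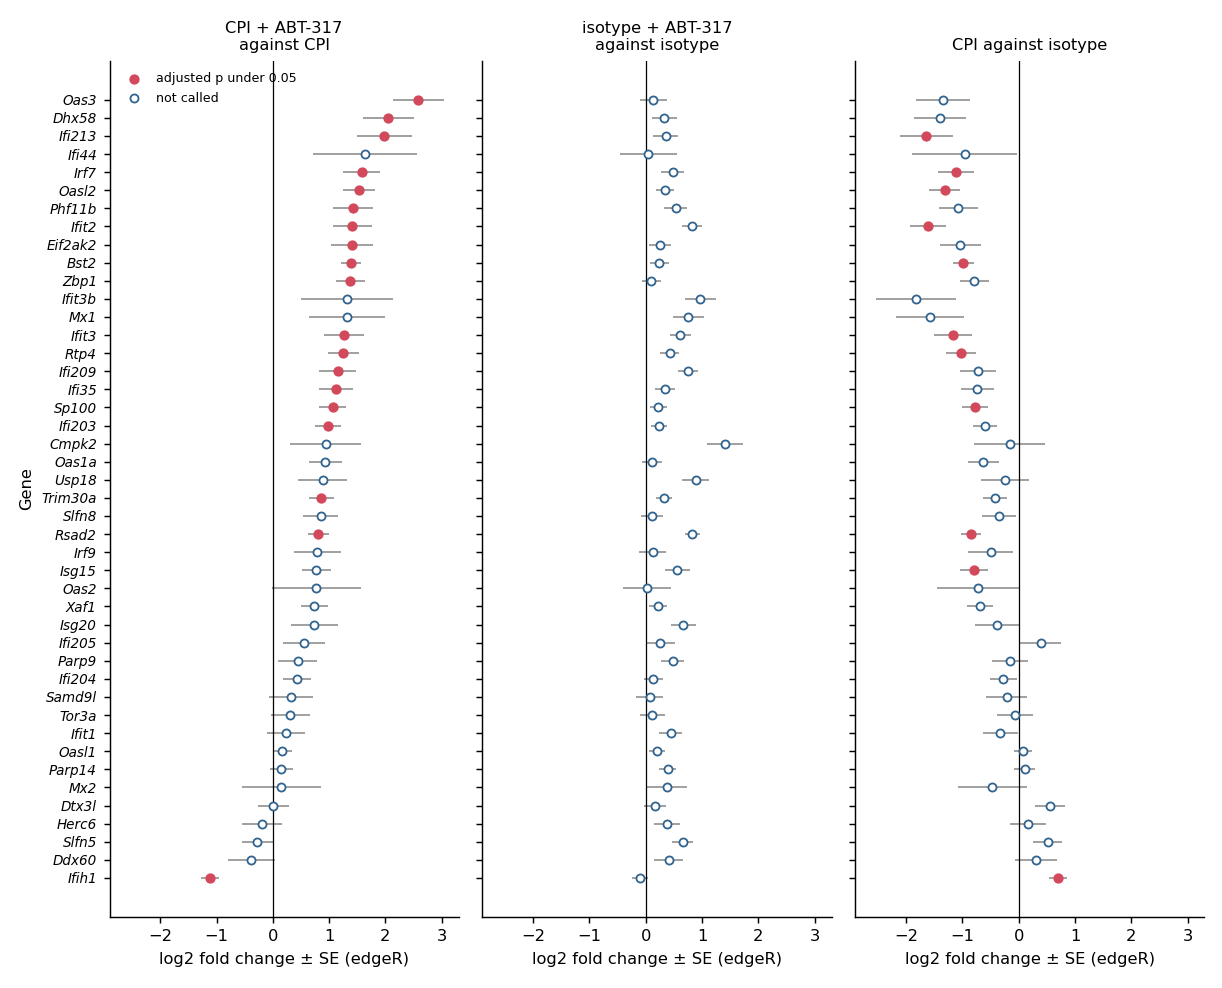
Log2 fold change (horizontal axes, with SE as bars) of each of the 44 genes (vertical axis, ordered by the left panel) in macrophage-like cells for 3 comparisons fitted together with edgeR. Filled points have an adjusted p under 0.05. The left panel has 18 filled points to the right of 0 and Ifih1 to the left, the middle panel has none, and the right panel has 10 to the left and Ifih1 to the right. The left and right panels share the CPI sums.

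ABT-317 under isotype: isotype + ABT-317 sums were mostly above isotype sums, by less. Of the 44 genes, 43 had log2 differences above 0, with a median of 0.34 against 0.00 over all genes, and for 32 of the 44 both isotype + ABT-317 sums lay above both isotype sums, as for 19.5% of all genes. None passed edgeR's test, where 0.0113% of 8887 genes passed, and 18 of the 44 had an unadjusted p under 0.05, as did 380 of all genes. DESeq2 called 1 (0.0675% of all genes), and 1 was called without cells carrying monocyte or T cell markers (0.0504% of 7935 genes). With reaction as a block, 9 were called, where 0.731% of all genes were. These were Cmpk2 (1.42), a mitochondrial nucleotide kinase beside Rsad2, Usp18 (0.89), Rsad2 (0.83), Ifit2 (0.82), Ifi209 (0.75), Slfn5 (0.66), Ifit3 (0.62), Isg15 (0.56), and Irf7 (0.48).

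Rsad2 was at 411 and 393 CPM in isotype + ABT-317 and at 227 and 214 in isotype (0.83 ± 0.14, edgeR adjusted p = 0.110 without the block). Isg15 was at 1002 and 1110 CPM in isotype + ABT-317 and at 656 and 739 in isotype, and the sums did not overlap. Bst2, at 1107 and 1214 against 926 and 985 CPM (0.24), Ifih1, at 208 and 158 against 196 and 189 CPM (-0.11), and Zbp1 (0.10) were near 0. The remaining representatives had log2 differences of 0.12 (Irf9), 0.14 (Ifi204), 0.22 (Sp100), 0.26 (Ifi205), 0.34 (Oasl2), 0.44 (Ifit1), and 0.75 (Mx1), none called.

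CPI against isotype, without ABT-317: 11 of the 44 passed, 10 lower in CPI and 1 higher, where 13.3% of 8887 genes passed (7.93% higher and 5.34% lower). The median log2 difference was -0.65 against -0.01 over all genes. Both CPI sums lay below both isotype sums for 26 of 44 genes, as for 28.3% of all genes, and above for 5, as for 30.3%. Those lower were Ifi213 (-1.64), Ifit2 (-1.61), Oasl2 (-1.31), Ifit3 (-1.16), Irf7 (-1.11), Rtp4 (-1.02), Bst2 (-0.98), Rsad2 (-0.84), Isg15 (-0.80), and Sp100 (-0.77). Ifih1 was higher in CPI (369 and 282 against 196 and 189 CPM), by 0.70 ± 0.15 with an edgeR adjusted p of 0.00868. Zbp1 (-0.79), Mx1 (-1.57), Irf9 (-0.50), Ifit1 (-0.33), Ifi204 (-0.27), Usp18 (-0.24), Ifi205 (0.39), and Slfn5 (0.52) were not called. With the reaction as a block, 16 were called (21.4% of all genes), with Zbp1, Mx1, Dhx58, Phf11b, and Xaf1 added, all lower. Without CPI reaction 1, 2 members were called (4.71% of all genes), and without isotype reaction 2, 6 (7.56%). Without cells carrying monocyte or T cell markers, 7 of 44 were called (7.42% of 7935 genes).

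The effect of ABT-317 itself differed between the CPI and isotype arms for 4 members, where 3.38% of 8887 genes passed (1.36% higher and 2.01% lower). Oas3 (2.45 ± 0.53), Zbp1 (1.28 ± 0.31), and Bst2 (1.14 ± 0.25) had the larger difference under CPI, and Ifih1 the lower one (-1.01 ± 0.22), with edgeR adjusted p of 0.0226, 0.0394, 0.0216, and 0.0230. Rsad2 (-0.02 ± 0.23), Usp18 (-0.00374 ± 0.53), and Isg15 (0.21 ± 0.34) had differences near 0, with 95% intervals of -0.47 to 0.43, -1.05 to 1.04, and -0.45 to 0.88. With reaction as a block, 8 were called (9.85% of all genes), with Ifi213, Oasl2, Irf7, and Dhx58 added, and with each cell given to its leading hashtag, 0 (1.66%). Without CPI reaction 1 or without CPI + ABT-317 reaction 2, 0 were called (0.938% and 1.09% of all genes), without CPI + ABT-317 reaction 1 or isotype + ABT-317 reaction 1, 1 (1.42% and 1.19%), and without CPI reaction 2, 2 (2.78%).

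Members with and without ISRE letters in the window were set side by side, with no test of the difference. Under CPI the median log2 difference with ABT-317 was 0.90 for the 18 genes with ISRE letters and 0.94 for the 15 without, and 10 and 6 were called, where 8.63% of all genes were. Under isotype the medians were 0.34 and 0.34, with 0 called in both. In CPI against isotype they were -0.71 and -0.68, with 6 and 4 called, where 13.3% of all genes were. The windows shown above belong to genes at both ends of the order, Oas3 and Ifih1.

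Surface protein was counted for 1 member, BST2 (CD317), in the MC38 antibody panel. Per 1000000 antibody UMIs, hashtags left out, macrophage-like cells were at 5044 and 5114 in isotype, 5136 and 5512 in isotype + ABT-317, 4452 and 4805 in CPI, and 5035 and 5309 in CPI + ABT-317. By this share of panel UMIs, CPI was lowest for the protein as it was for the RNA, and both CPI sums lay below the other 6. CPI sums were also below isotype sums in T cell-like (4238 and 4298 against 4552 and 4755), dendritic cell-like (4667 and 4429 against 5079 and 5657), and fibroblast-like cells (4749.6 and 4817 against 6473.5 and 7183), and overlapped them in nonleukocytes (9045 and 9138 against 8436 and 9096). The share also depends on the counts of the other antibodies. In mean CD317 UMIs per cell, CPI-tagged macrophage-like cells were at 27.9 and 37.6. These values overlapped those of isotype (36.8 and 39.9) and isotype + ABT-317 (35.2 and 40.1). They overlapped less with CPI + ABT-317, which was at 40.2 and 46.0, above both. No control antibody was set against CD317 here. T cell-like cells were at 4453 and 4454 and neutrophil-like cells at 4542 and 5207 over all treatments, near the 5113 and 5182 of macrophage-like cells, while Bst2 RNA was at 279 and 311 CPM in T cell-like cells. The protein means spanned a smaller range than the Bst2 RNA means, which went from 497 CPM in CPI to 1269 CPM in CPI + ABT-317. Nonleukocytes had more CD317, at 9155 and 9741 over all treatments, than macrophage-like cells, while their Bst2 RNA was lower (641 and 686 against 946 and 1014.5 CPM). A comparison of a pair of treatments, with 2 sums each, cannot go below 0.333 in a two-sided exact permutation test, and the protein was not tested, neither by pairs nor over the 4 treatments together.

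Other genes of the pathway were compared in the same fit. In macrophage-like cells under CPI, Jak1, which encodes the kinase that ABT-317 inhibits, was lower with ABT-317 (232 and 162 to 100.0 and 86.5 CPM, -1.02 ± 0.18), with an edgeR adjusted p of 0.00291. Ifnar1 (-0.14), Ifnar2 (0.24), Tyk2 (1.16), and Stat2 (1.07) were not called. None of the 10 tested upstream sensing genes and none of the 4 feedback genes passed there, where 8.63% of all genes did, with 2 and 1 at an unadjusted p under 0.05, as were 2016 of 8887 genes. Feedback genes passed in CPI against isotype, where 7.93% of all genes were higher and 5.34% lower. These were 2 of 4, both higher, Ptpn2 and Socs1 (1.62 ± 0.33), an inhibitor of JAK kinases. Jak1 was called higher in CPI than in isotype as well, so its fall with ABT-317 under CPI starts from raised CPI sums. With ABT-317 under isotype, 0 of the 6 receptor and signaling genes, Jak1 among them, were called, where 0.0113% of all genes were.

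A list of 20 genes biased to IFN-γ was compared beside the 44. It holds not only induced genes but also Ifng itself, the receptor genes Ifngr1 and Ifngr2, and Jak2. Its summed level was 1932 and 2010 CPM in isotype, 1786 and 1860 in isotype + ABT-317, 1908 and 2040 in CPI, and 3398 and 3309 in CPI + ABT-317. The CPI + ABT-317 sums stood above all others. Of 19 tested, 8 rose and 1, the receptor gene Ifngr1, fell with ABT-317 under CPI, where 3.68% of all genes rose and 4.95% fell. The largest rise was that of Cxcl9, a chemokine that draws T cells (255 and 150.5 to 730 and 698 CPM, 1.89 ± 0.18). The median log2 difference was 0.85 with 17 of 19 above 0, next to 0.87 with 40 of 44 above 0 for the type I ISGs. Under isotype 0 passed, as did 0.0113% of all genes, with 2 at an unadjusted p under 0.05 (380 of 8887 genes), and the median was -0.07 with 6 of 19 above 0, next to 0.34 with 43 of 44 for the type I ISGs. The effect of ABT-317 differed between the arms for 5 of 19, all higher under CPI, where 1.36% of all genes were. Of the list, 3 genes (Ciita, Ifngr1, and Irf1) were higher and 1 (Psmb8) lower in CPI than in isotype, where 7.93% of all genes were higher and 5.34% lower. Its CPI sums overlapped those of isotype, while for the 44 type I ISGs the CPI sums lay below them. No test compared the lists with each other.

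Of the type I interferons themselves, only Ifnb1, which encodes IFN-β, passed the count filter in macrophage-like cells. It had 1020 and 1473 UMIs there (46.7 and 56.0 CPM) and was seen in 8.43% and 9.70% of cells, against 0.482 and 0.349 CPM in nonleukocytes, of which 0.502% and 0.380% had a UMI at median depths of 17998 and 24609 UMIs, and monocyte-like cells differed between reactions, with 0 UMIs in 74 cells of reaction 1 and 14 UMIs (65.0 CPM, 9.52% of 63 cells) in reaction 2. The 46 and 90 macrophage-like cells with 5 or more UMIs held 40.3% and 49.8% of its UMIs. By treatment it was at 52.5 and 58.6 CPM in isotype, 41.7 and 44.1 in isotype + ABT-317, 11.7 and 64.5 in CPI, and 10.3 and 49.6 in CPI + ABT-317. The 2 reactions disagreed in both CPI arms, and no contrast was called, with log2 differences of -0.31 for ABT-317 under CPI and -0.42 under isotype.

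Type I ISG levels were higher in macrophage-like cells with more Ifnb1 UMIs, in both reactions, for some members. Cells without an Ifnb1 UMI were at 3650 and 3859 CPM for the 44 genes, cells with 1 to 4 at 5194 and 5210, and cells with 5 or more at 8696 and 7766. Their median depths were 3564 and 4176, 4288 and 5048, and 5378 and 5352.5 UMIs. Rsad2 was at 197 and 177 CPM without, 471 and 447 with 1 to 4, and 1283 and 957 with 5 or more Ifnb1 UMIs. Isg15 (589 and 685 to 2569 and 1893), Ifih1 (159 and 150 to 819 and 639), and Ifit1 (36.4 and 38.2 to 228 and 315) followed the same order. Bst2 was at 941 and 1016 CPM without and 1003 and 1034 with 5 or more, and Zbp1, Irf9, Sp100, and Usp18 likewise did not follow it in both reactions. These groups of cells share their library and were set by 1 gene's count, so the values are a description with no test.

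**Figure D5:**
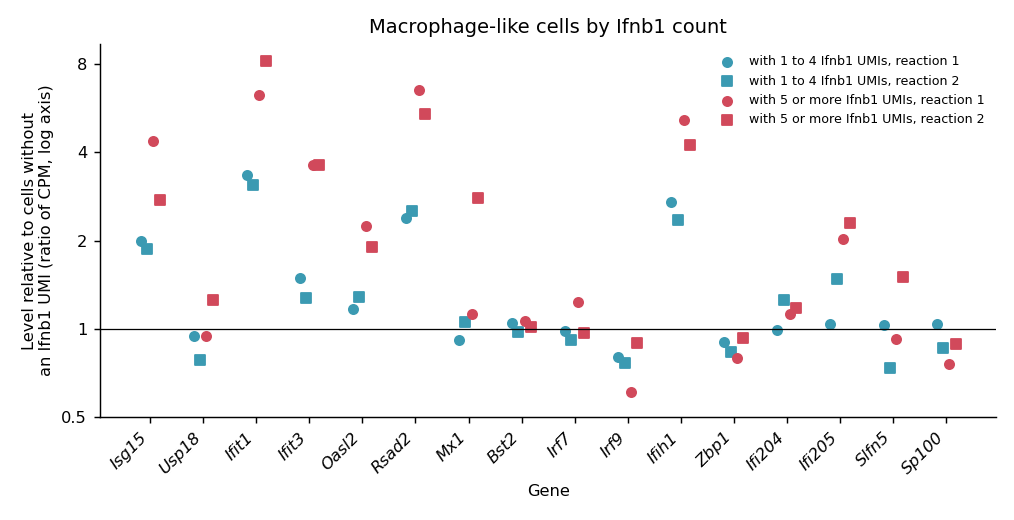
Ratio of CPM (vertical axis, log scale) in macrophage-like cells with 1 to 4 or with 5 or more Ifnb1 UMIs to that in cells without one, for 16 genes (horizontal axis) and 2 reactions (marker shape). Isg15, Ifit1, Rsad2, and Ifih1 stand above 1 in both groups, and Bst2, Irf9, and Sp100 lie near or below it.

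In unnamed nonleukocyte cells the summed level was 1515 and 1653 CPM in isotype, 1701 and 1919 in isotype + ABT-317, 2315 and 1924 in CPI, and 2162 and 2178 in CPI + ABT-317. Of the 44 genes, 8 passed edgeR's test in CPI against isotype, where 11.1% of 15781 genes passed (7.8% higher and 3.31% lower). Those higher were Slfn5 (4.36), Ifi204 (3.54), Ifi205 (3.02), Ifi203 (1.89), Irf9 (1.03), and Bst2 (0.58 ± 0.11, 968 and 902 against 528 and 564 CPM), and those lower were Ifi213 (-1.83) and Isg20 (-0.87). In cells with fewer than 2500 genes the difference was -0.60 for Bst2 and 0.065 for Isg20, both of opposite sign, and -1.69 for Isg15, which passed the test there and had 0.05 in all cells, not called. Rsad2 (-0.19), Ifit1 (-0.38), Ifit3 (-0.01), Oasl2 (-0.11), Mx1 (0.44), Usp18 (0.39), Irf7 (-0.25), Ifih1 (-0.40), Zbp1 (-0.06), and Sp100 (0.14) were not called. Both CPI sums lay above both isotype sums for 16 of the 44 genes, as for 36.3% of all genes, and below for 8, as for 17.8%. With reaction as a block, 10 were called (25.8% of all genes), with Ifi44 added as higher and Ifi35 (-0.53) as lower. Without CPI reaction 1, 5 members were called (5.56% of all genes), and without CPI reaction 2, 4 (3.97%).

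With ABT-317 under CPI, 4 of the 44 members fell in these cells and none rose. This was close to the share of all 15781 genes, of which 8.45% passed (1.96% higher and 6.48% lower). Slfn5 was at 14.5 and 23.6 CPM in CPI and at 1.07 and 0.701 in CPI + ABT-317, a log2 difference of -4.20 ± 0.47 with an edgeR adjusted p of 0.000653. Ifi204 (11.7 and 12.1 to 1.20 and 0.846 CPM), Ifi205 (18.2 and 21.0 to 2.74 and 2.85 CPM), and Ifi203 (12.2 and 16.6 to 4.30 and 3.14 CPM) had log2 differences of -3.33, -2.59, and -1.72. Both CPI + ABT-317 sums lay above both CPI sums for 11 of the 44 genes, as for 14.9% of all genes, and below for 10, as for 35%. The 4 genes also passed as different between the arms (3.72% of all genes did). In isotype, where these genes were at 0.557 to 3.39 CPM, ABT-317 left 0 of 44 called (0.00634% of all genes), with 1 of the 44 at an unadjusted p under 0.05 (642 of 15781 genes) and 0 called by DESeq2 (0.108% of all genes). With reaction as a block 12, 8, and 14 members were called for ABT-317 under CPI, the difference, and ABT-317 under isotype, where 22.6%, 18.1%, and 18.8% of all genes were. Under CPI the block added Ifi209 as lower and Zbp1, Herc6, Isg20, Bst2, Xaf1, Ifi35, and Rtp4 as higher, and under isotype all 14 were higher. Without CPI reaction 2, 2 and 1 members were called under CPI and for the difference (2.77% and 1.38% of all genes).

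The 4 genes were more abundant in fibroblast-like cells than in nonleukocytes, but not only there. Over all treatments, Ifi203, Ifi204, and Ifi205 had their highest means in monocyte-like cells (118, 120, and 143 CPM), and Slfn5 was at 141 CPM in endothelial-like cells. In CPI-tagged fibroblast-like cells Slfn5 was at 222 and 230 CPM, Ifi205 at 163 and 195, Ifi204 at 63.3 and 56.98, and Ifi203 at 51.8 and 55.7. The 163 and 113 CPI-tagged nonleukocytes carried the 7-gene fibroblast list at 3335 and 3790 CPM, against 1397 to 2169 CPM in the other 6 sums, and the 8-gene B cell list at 234 and 341 against 31.1 to 46.4 CPM, with Ms4a1, Fcer2a, and Pax5 of the B cell list at 0 in both CPI sums. Within the fibroblast list, Col1a1, Col1a2, and Pdgfrb were higher and Pdgfra lower in CPI than in isotype, only 3 of 7 were above 0, and the median log2 difference was -0.07. With ABT-317 under CPI, Col1a1, Col1a2, Col3a1, and Pdgfrb fell and Lum and Pdgfra rose. The 6-gene endothelial list was at 26.7 and 42.6 CPM in CPI against 11.5 to 15.5 CPM, with Emcn and Kdr at 0 in CPI reaction 2, and Pecam1 and Tek were called higher in CPI and lower with ABT-317 under CPI. The cDC2 list was at 16.8 and 14.6 CPM in CPI against 3.902 to 7.87 CPM, with Cd209a and Clec10a at 0 in both CPI sums, and the plasma cell list at 31.3 and 37.6 against 23.5 to 27.8 CPM, with Derl3, Mzb1, and Tnfrsf17 at 0. The part of these markers in the differences was not tested.

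Fibroblast-like cells had too few cells per treatment for a test (12 to 712 in each sum). Their summed level was 1919 and 1880 CPM in isotype, 2250 and 2051 in isotype + ABT-317, 1622 and 1697 in CPI, and 1503 and 2046 in CPI + ABT-317. Dendritic cell-like and monocyte-like cells were likewise given by level alone. Monocyte-like cells were at 3655 and 3659.9 CPM in isotype (39 and 30 cells), 3078 and 1478 CPM in CPI, and 5430 and 6595 CPM in CPI + ABT-317, the last 4 sums from 9 to 11 cells each, with 0 cells in isotype + ABT-317. Dendritic cell-like cells were at 2671 and 1670.2 CPM in isotype (66 and 46 cells), 2806 and 5641 in isotype + ABT-317 (6 and 3 cells), 3519 and 2278 in CPI (22 and 21 cells), and 1942 and 2577 in CPI + ABT-317 (9 and 3 cells). The sums of dendritic cell-like cells overlapped between CPI and CPI + ABT-317.

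In TDLNs, 33 of the 42 measured members passed the count filter, and B cell-like and T cell-like cells differed in 3. This was a smaller share than that of all 10497 genes, of which 15.9% passed (8.98% higher and 6.93% lower). All 3 were higher in B cell-like cells. Ifi209, a HIN200 gene, was at 109, 100.0, and 119 CPM in B cell-like and 55.5, 48.5, and 42.9 CPM in T cell-like cells, a log2 difference of 0.94 ± 0.15 with an edgeR adjusted p of 0.00083. Tor3a, a torsin ATPase (20.6, 16.1, and 42.2 against 6.73, 6.58, and 21.5 CPM), and Samd9l, an antiviral growth regulator (110, 103, and 70.3 against 60.6, 57.1, and 64.4 CPM), had 1.36 ± 0.30 and 0.67 ± 0.17. The groups did not overlap for Ifi209 and Samd9l, and overlapped for Tor3a.

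Sp100, the most counted member in TDLNs, was at 422, 429, and 408 CPM in B cell-like and 273, 281, and 372 CPM in T cell-like cells (0.37 ± 0.14, not called). Isg15 was at 14.6, 13.9, and 0 against 30.3, 25.9, and 0 CPM (-1.06 ± 0.35, edgeR adjusted p = 0.0573). Both sums of reaction 3 were at 0, and 3 counts there would be 21.1 and 21.5 CPM. Bst2 (-0.12), Irf7 (-0.19), Irf9 (-0.21), Zbp1 (-0.19), Slfn5 (-0.32), Ifit3 (0.32), Oasl2 (-0.04), Usp18 (0.03), and Ifih1 (-0.54) were not called. For 7 of 33 all B cell-like sums lay above all T cell-like sums, as for 16.8% of all genes, and for 1 below, as for 8.2%. With reaction as a block 6 passed, where 24.9% of all genes did, with Sp100, Oasl1, and Isg15 added, Isg15 as the only one lower in B cell-like cells. Without reaction 3, 5 were called (17.4% of all genes), without reaction 1, 1 (9.37%), and without reaction 2, 0 (2.87%).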

How the data were processed

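Single cells of 3 TDLN and 2 MC38 tumor reactions were analysed with a 5′ kit for genes and, in MC38, surface antibodies. The deposited matrices hold raw UMI counts per gene or antibody and barcode, as made by the authors with Cell Ranger. The submitters' processing notes name Cell Ranger 3.1.0 with GRCm38 and mm10, while the matrix headers name 7.1.0 (TDLN) and 8.0.1 (MC38). No other per-sample columns were set aside (0).

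The 44 genes and all other lists were chosen with earlier results of these data known. Barcodes with at least 200 genes and under 10% mitochondrial UMIs passed, with under 2500 genes in TDLNs and no upper limit in MC38. Cells were classed by fixed marker gates, and treatments were called from hashtag counts above background by a mixture of absent and present tags (posterior 0.5). The isotype tag was less separated, with cutoffs of 0.52 and 1.01 log units and present-tag means of 1.42 and 2.03. For the other tags the cutoffs were 1.31 to 1.77 and the present-tag means 2.11 to 2.9. Passing cells called isotype numbered 12837 and 10156, against 2429 and 1667 called CPI. Passing barcodes with several hashtags (5076 and 2730) or none (6269 and 3980) were left out of the treatment sums. No doublet caller was run. Raw counts were summed per reaction, class, and treatment. Classes with at least 50 cells (10 in TDLNs) in every sum were tested with edgeR 4.0.16 (TMM, low-count filter, quasi-likelihood, R 4.3.3) over all genes passing the filter. The threshold was a Benjamini-Hochberg adjusted p of 0.05, and the SE was the log2 fold change over the square root of F. DESeq2 1.42.0, other filters, other gates, and fits without 1 sum were alternatives. Python 3.11.15, numpy 2.4.6, scipy 1.17.1, and pandas 2.3.3 were used. Only the edgeR and DESeq2 fits were tried on simulated data, with independent sums and known changes. Cell filters, hashtag calls, and marker gates were not simulated.

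Named genes were the 10 called members with the largest change per contrast and 16 role representatives. Others named in the text were chosen after their values were seen. Sums of 1 reaction come from the same library, and deviations of the macrophage treatments correlated within reactions at 0.134 to 0.408 (median 0.231), of monocyte-like with macrophage-like cells at 0.00554, and of B cell-like with T cell-like cells at 0.0667 to 0.210. Poisson intervals (95%) and limits from 3 counts cover counting error only. The 95% intervals of the difference of ABT-317 effects instead rest on the edgeR SE between sums. They use a normal quantile, which may make them too narrow for so few sums.

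A few genes of the pathway and marker lists are not reported here.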

Additional observations from a re-analysis of the deposited data

Results flagged for a closer look

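The effect of ABT-317 differed between the CPI and isotype arms, by the edgeR test of that difference, for 8 genes and cell classes. Of all genes, 3.38% of 8887 passed this test in macrophage-like cells and 3.72% of 15781 in nonleukocytes. In macrophage-like cells the difference was 1.14 on the log2 scale for Bst2, 2.45 for Oas3, 1.28 for Zbp1, and -1.01 for Ifih1. In unnamed nonleukocyte cells it was -4.26 for Slfn5, -3.35 for Ifi204, -2.68 for Ifi205, and -1.92 for Ifi203. Every one of these comparisons uses the CPI sums, which hold 124 and 124 macrophage-like and 163 and 113 nonleukocyte cells. In macrophage-like cells the CPI sums also had the monocyte list at 586 and 420 CPM, against 110 to 155 elsewhere. In nonleukocytes they had the fibroblast list at 3335 and 3790 CPM, against 1397 to 2169 elsewhere, though its genes did not all move one way. The part of such markers in these differences was not tested. With each cell given to its leading hashtag, 0 members were called in macrophage-like cells, where 1.66% of all genes were. In nonleukocytes 3 were called with that setting, where 3.8% of all genes were. With DESeq2, 4 were called in each class (3.65% and 6.33% of all genes).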

How the results depend on the processing

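Of the counts of called members in the alternative fits, 109 were equal or similar to the main count and 44 were not. Among single genes, 2435 values kept their side of the threshold, 156 were no longer called, 64 were newly called, and 5 reversed. The 2435 include genes called in neither fit, so they are not a count of calls that held. A change of sign counted as a reversal only where the main fit or the alternative called the gene. The 2435 may therefore include changes of sign in genes called by neither. The reversals were in nonleukocytes, where CPI against isotype in cells with fewer than 2500 genes gave 0.065 for Isg20, -0.60 for Bst2, and -1.69 for Isg15, and the difference of ABT-317 effects for Rsad2 was 2.55 in those cells and 1.65 with a stricter gate. All alternatives for nonleukocytes and the fits without cells with monocyte or T cell markers were chosen after seeing the data.

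Beside each count of called members stands the share of all genes called in the same fit. With the reaction as a replicate block (pairing by library), no member lost its call. In macrophage-like cells, called members were 22 (14.9%) for ABT-317 under CPI, 9 (0.731%) under isotype, 16 (21.4%) for CPI against isotype, and 8 (9.85%) for the difference. There were 2 (2.42%) for monocyte against macrophage and 6 (24.9%) for B against T cells. In nonleukocytes there were 12 (22.6%), 14 (18.8%), 10 (25.8%), and 8 (18.1%) in the same order as in macrophage-like cells.

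In macrophage-like cells, ABT-317 under CPI gave 12 (7.39%) with at least 1000 genes, 10 (6.10%) with a stricter gate, and 8 (4.32%) without monocyte or T cell markers. ABT-317 under isotype gave 1 (0.0675%) with DESeq2, 3 (0.115%) without the low-count filter, and 1 (0.0504%) without those markers. CPI against isotype gave 7 (11.5%), 17 (7.25%), and 7 (7.42%) with at least 1000 genes, without the filter, and without those markers, and the difference gave 0 (1.66%) with leading hashtags and 8 (2.45%) without the filter. Monocyte against macrophage gave 4 (1.49%) without the filter and 1 (3.11%) with a stricter gate. In nonleukocytes ABT-317 under CPI gave 7 (11.6%) with DESeq2, 12 (9.19%) without the filter, and 12 (12.7%) with a stricter gate. The cause was not tested.

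Without 1 sum at a time, counts in macrophage-like cells ranged from 4 to 20 for ABT-317 under CPI (2.39% to 7.91%), 0 to 1 under isotype (0% to 0.0213%), 2 to 14 for CPI against isotype (4.71% to 12.2%), and 0 to 4 for the difference (0.938% to 3.19%). They ranged from 1 to 2 for monocytes (0.44% to 1.63%) and 0 to 5 for B against T cells (2.87% to 17.4%). In nonleukocytes they ranged from 2 to 5 (2.77% to 7.47%), 0 to 0 (0% to 0.00606%), 4 to 8 (3.97% to 9.87%), and 1 to 4 (1.38% to 3.27%) for the 4 comparisons in the same order. Among macrophage sums, those of CPI were the shallowest, at 341121 and 418587 UMIs.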

Other observations

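Plasmacytoid DC-like cells of TDLN reaction 2 gave 70.2% of their type I ISG UMIs from Bst2, which also marks that cell type. In MC38 T cell-like cells of reaction 2, all 21 Ifnb1 UMIs came from 1 cell.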
